A study of Homo sapiens with 24 samples.

Results

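The 10 genes followed here encode carriers of amino acids across the plasma membrane and were measured in lymphoma cells given artesunate, an antimalarial drug of the artemisinin class. They were SLC7A1, SLC7A5, SLC3A2, SLC7A6, SLC43A1, SLC6A9, SLC38A1, SLC38A2, SLC1A4 and SLC1A5, and every array probe annotated with 1 of these symbols was kept, which gave 15 of 47319 probes and 10 of 20045 genes with a symbol of their own on the array. Each probe was read on its own, since a probe reports only 1 stretch of a transcript. Of the 15 probes, 14 were detected (detection p under 0.05) on 2 or more of the 24 arrays and were tested, with all 10 genes represented, and the remaining SLC6A9 probe was detected on 0 arrays.

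The cell lines were BL-41, a Burkitt lymphoma line, and a pair (Oci-Ly-2 and SU-DHL-4) of diffuse large B-cell lymphoma lines. The study lists this pair under the germinal centre B-cell type. Each of the 3 cell lines had 2 Illumina HumanHT-12 v4 arrays in 4 conditions: the 0 h control, 4 h with 5 µM artesunate, 12 h with 5 µM artesunate and the 12 h control, which makes 12 groups. By the labels, no treatment was given to the controls, while the text of the study names a vehicle, so it is not known whether the vehicle is part of the comparisons at 12 h. The 2 arrays of a group carry the replicate numbers 1 and 3 and are technical replicates, so the p-values rest on differences among arrays, which may be technical, and the spread of independent cultures was not measured. No control at 4 h was analysed here, so the 4 h artesunate arrays were set against the 0 h control, and in that comparison the drug and the time in culture cannot be told apart.

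On each array 16156 to 18171 of the 47319 probes were detected, and the arrays of a group correlated at 0.986 to 0.993. Of the 5 B-cell marker genes on the array, 4 were detected on all 8 arrays of each cell line and the PAX5 probe on none. Of 4 germinal centre B-cell markers, SU-DHL-4 detected 4 on all its arrays, and BL-41 and Oci-Ly-2 each detected 2. SERPINA9 was detected on no array of BL-41, and MYBL1 and SERPINA9 on none of Oci-Ly-2. The log2 of their summed signal in the 12 h control was 10.36 to 10.73 in BL-41, 11.99 to 12.21 in SU-DHL-4 and 10.51 to 10.65 in Oci-Ly-2. Of 5 T-cell markers, CD3D and CD3E were detected on 0 arrays of any line and CD3G, CD2 and CD8A on 0 to 3 of the 8 arrays of a line. Of 5 myeloid markers, CSF1R and ITGAM were detected on 0 arrays, CD14 and FCGR3A on 2 to 4 and LYZ on 7 or 8 of the 8 arrays of a line. The log2 of the summed signal of the myeloid markers was 7.48 to 7.54 with artesunate against 7.73 to 7.76 in the 12 h control of Oci-Ly-2. It overlapped in the other lines. For the T-cell markers it was 7.74 to 7.8 with artesunate against 7.61 to 7.73 in control Oci-Ly-2 and overlapped in the other lines. The summed log2 signal of 4 plasma cell markers was lower with artesunate at 12 h, at 11.77 to 11.94 with artesunate against 12.13 to 12.17 in control BL-41, 11.76 to 11.79 with artesunate against 11.99 to 12.12 in control SU-DHL-4 and 10.99 to 11.01 with artesunate against 11.15 to 11.31 in control Oci-Ly-2, and the part of these markers in the results below was not tested.

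Amino acids are polar and cross the plasma membrane only through carrier proteins. SLC7A5 (LAT1) and SLC7A6 (y+LAT2) are light chains that reach the cell surface as partners of the heavy chain SLC3A2 (4F2hc, CD98), and they exchange large neutral or cationic amino acids, whereas SLC43A1 (LAT3) carries branched-chain amino acids on its own. SLC7A1 (CAT1) takes up arginine and lysine, SLC6A9 (GlyT1) takes up glycine together with sodium and chloride, SLC38A1 and SLC38A2 (SNAT1 and SNAT2) take up glutamine and other neutral amino acids together with sodium, and SLC1A4 and SLC1A5 (ASCT1 and ASCT2) exchange small neutral amino acids and, for SLC1A5, glutamine. Several of these genes are known targets of ATF4, a transcription factor that is made when the kinases of the integrated stress response act, under endoplasmic reticulum stress or lack of amino acids, and that binds C/EBP-ATF response elements as a dimer with other bZIP proteins. MYC, the oncogene that is translocated in Burkitt lymphoma, binds E-boxes.

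The promoters were searched for the letters of both kinds of element, TGATGNAA for the core of the C/EBP-ATF response element and CACGTG for the E-box, on both strands, in RefSeq windows of GRCh38.p14 that run from 250 bases before to 50 bases after an annotated start. All 10 genes matched, with 17 windows. TGATGNAA was found in 5 windows of 5 genes, against 3.62% of all 35116 windows and 4.46% of 27305 genes. CACGTG was found in 3 windows of 3 genes, against 7.26% of all windows and 8.77% of genes. A gene with several windows had more chances of a match, the motifs do not overlap one another in these windows, and a match describes letters only. The stretches around the TGATGNAA matches of these 5 genes are shown. Of these genes, SLC7A1 and SLC3A2 were called higher at 12 h in every line, SLC1A4 and SLC1A5 in BL-41 only and SLC38A1 in none. The match is in capitals, with up to 36 bases on each side within the window, 5′ to 3′ on the strand of the gene.
SLC7A1, chr13:29595639-29595717: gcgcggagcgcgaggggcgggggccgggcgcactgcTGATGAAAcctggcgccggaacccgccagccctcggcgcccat
SLC3A2, chr11:62881700-62881748: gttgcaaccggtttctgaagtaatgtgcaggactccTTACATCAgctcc
SLC38A1, chr12:46266477-46266556: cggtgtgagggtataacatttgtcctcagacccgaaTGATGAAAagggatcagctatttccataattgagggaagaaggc
SLC1A4, chr2:64989356-64989435: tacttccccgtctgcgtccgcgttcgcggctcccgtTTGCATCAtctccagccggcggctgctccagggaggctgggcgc
SLC1A5, chr19:46784868-46784947: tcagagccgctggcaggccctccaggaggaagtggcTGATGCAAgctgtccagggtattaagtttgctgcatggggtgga
Distances are from the annotated start of the window that held the match. SLC3A2, SLC38A1, SLC1A4 and SLC1A5 each also had a window at another start without TGATGNAA. In each of these genes the match lay in the window furthest downstream. The match began 7 bases downstream of the start for SLC7A1 (minus strand) and 37 bases downstream for SLC3A2 (plus strand). It began 4 bases upstream for SLC38A1 (minus strand), 7 bases upstream for SLC1A4 (plus strand) and 97 bases upstream for SLC1A5 (minus strand). For SLC3A2 and SLC1A4 the motif lay on the strand opposite to the gene, so the capitals show its reverse complement. The E-box stretches, all on the minus strand of the genome, were those of SLC7A5, SLC1A5 and SLC43A1, shown because SLC7A5 and SLC43A1 held no TGATGNAA.
SLC7A5, chr16:87869596-87869673: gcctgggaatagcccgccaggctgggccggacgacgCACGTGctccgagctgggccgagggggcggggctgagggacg
SLC1A5, chr19:46787302-46787379: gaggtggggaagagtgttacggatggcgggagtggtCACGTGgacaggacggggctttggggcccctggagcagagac
SLC43A1, chr11:57515773-57515850: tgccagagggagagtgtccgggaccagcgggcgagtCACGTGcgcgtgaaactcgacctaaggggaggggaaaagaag
The E-box began 130 bases upstream of the start of its window in SLC7A5, 50 bases upstream in SLC1A5, in another window than its TGATGNAA, and 112 bases upstream in SLC43A1. Both SLC1A5 and SLC43A1 also had a window without CACGTG. Neither set of letters was found in the windows of SLC6A9, SLC38A2 or SLC7A6. Of these, SLC6A9 probe ILMN_1714445 was called higher at 12 h in every line, SLC38A2 in 2 lines and SLC7A6 in none. A link between the letters and the 12 h changes was not tested.

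After 12 h with artesunate the fitted change against 12 h control cells was positive for 12 of the 14 probes in each of the 3 cell lines. Fewer of them passed the threshold for a call. A probe was called when its log2 fold change was beyond 0.5 in size and limma gave an adjusted p under 0.01 (Benjamini-Hochberg, over all 25017 probes tested). By that rule 6 of 14 probes (5 genes) rose in BL-41, against 0.939% of all probes called higher, 5 of 14 (4 genes) rose in SU-DHL-4, against 0.588%, and 6 of 14 (5 genes) rose in Oci-Ly-2, against 1.59%. No transporter probe was called lower in a single cell line, where 0.572%, 0.344% and 1.44% of all probes were. The genes were chosen with earlier results of these data known, so these shares describe the list and are not an independent test. The 14 probes had a median log2 fold change of 0.74 in SU-DHL-4, 0.79 in Oci-Ly-2 and 0.90 in BL-41, and the median of all probes tested was between -0.0017 and 0.00234. SLC7A1, both SLC3A2 probes and 1 SLC6A9 probe were called higher in every cell line, 4 of 14 probes where 62 of the 25017 probes (0.248%) were. Scaling the arrays by their medians in place of quantiles left 1 of these 4, the SLC6A9 probe, called in every line, and leaving out the background correction left all 4 and added SLC38A2. In 1 or more lines 8 probes of 7 genes were called higher, which adds SLC38A2, SLC1A4, SLC1A5 and SLC43A1, where 559 of all probes (2.23%) were. For 11 of the 14 probes both artesunate arrays lay above both 12 h control arrays in each of the 3 lines. In a single line 22.4%, 22% and 25.6% of all probes did so, and the share over all 3 lines was not computed. With the 8 arrays of a cell line fitted alone, SLC6A9 probe ILMN_1714445 was the only member called in SU-DHL-4 (adjusted p 0.00301) and in BL-41 (adjusted p 9.25e-05), and 6 member probes were called in Oci-Ly-2. In bulk RNA a higher signal in more cells and more RNA per cell cannot be told apart.

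**Figure D1:**
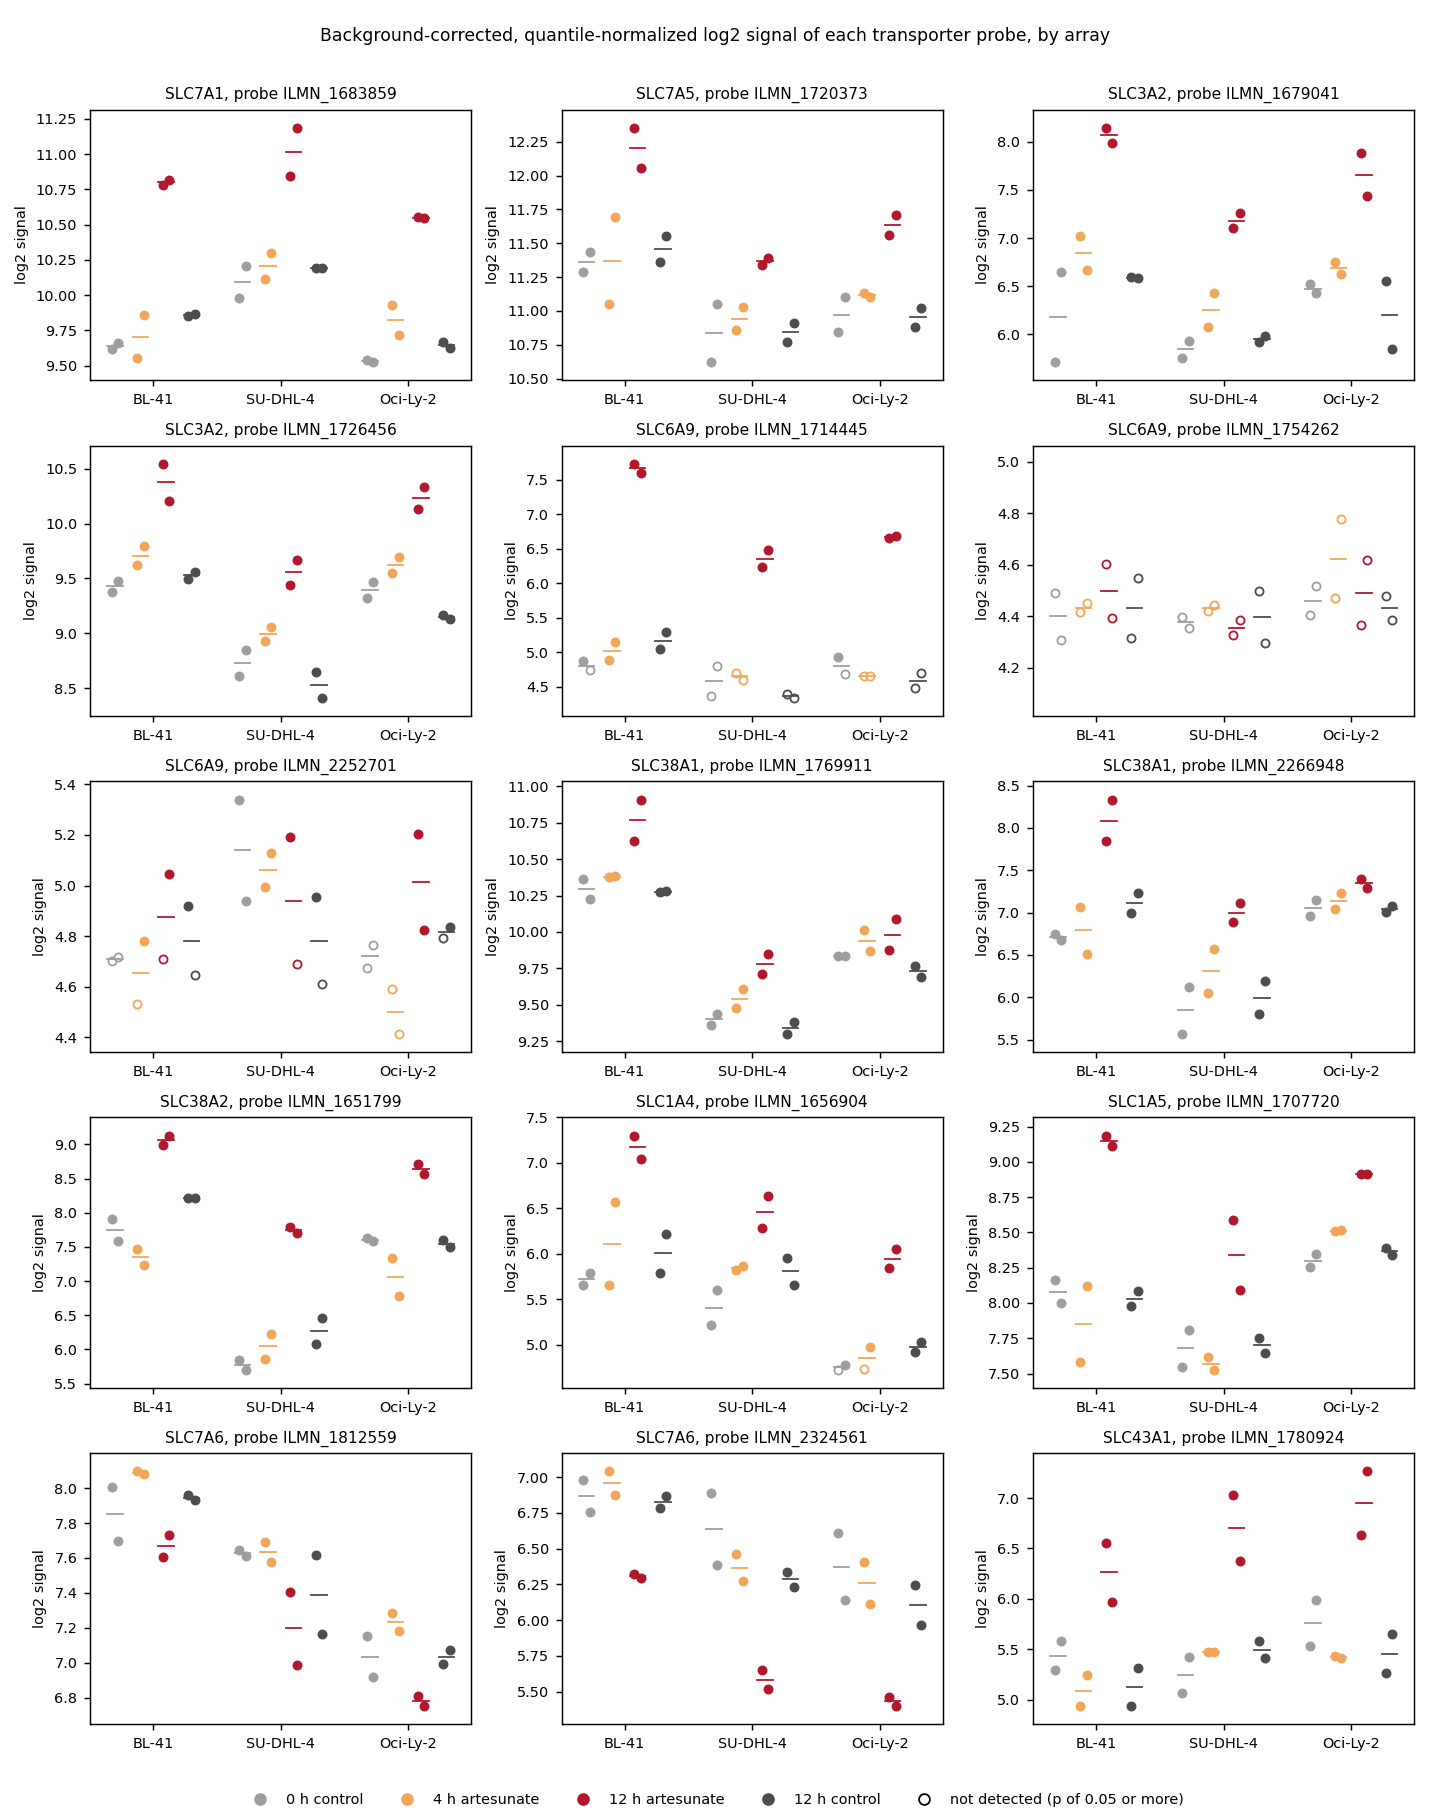
Background-corrected and quantile-normalized log2 signal (y axis) of each of the 15 probes on all 24 arrays, grouped by cell line, with 1 point for each array, a line at the mean of the 2 arrays of a group and open points where the probe was not detected. The 12 h artesunate arrays of SLC6A9 probe ILMN_1714445 lie between 6.23 and 7.73, above every other array of that probe, which lie between 4.33 and 5.29.

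The heavy chain SLC3A2 was measured by 2 probes, which are annotated to the same RefSeq transcript. The dimmer probe, ILMN_1679041, had log2 signals of 8.15 and 7.99 in BL-41 at 12 h with artesunate, against 6.59 and 6.58 in the 12 h control. In SU-DHL-4 it had 7.10 and 7.26 with artesunate, against 5.92 and 5.99 in the control, and in Oci-Ly-2 7.88 and 7.43 with artesunate, against 6.55 and 5.85 in the control. The groups did not overlap in any line, and 1 of the Oci-Ly-2 control arrays lay well below the other. The log2 fold change was 1.23 in SU-DHL-4 (limma adjusted p 0.0091), 1.46 in Oci-Ly-2 (0.00101) and 1.48 in BL-41 (0.00138), with an SE of 0.25 each. The brighter probe, ILMN_1726456, had 10.55 and 10.21 with artesunate, against 9.49 and 9.56 in 12 h control BL-41. It had 9.44 and 9.67 with artesunate, against 8.65 and 8.41 in control SU-DHL-4, and 10.14 and 10.33 with artesunate, against 9.17 and 9.13 in control Oci-Ly-2. Again the artesunate arrays of each line lay above its controls. The changes were 0.85 for BL-41 (adjusted p 0.00222), 1.03 for SU-DHL-4 (0.000579) and 1.09 for Oci-Ly-2 (0.000142), with an SE of 0.15 each. When each of the 4 arrays of a comparison was left out in turn, the change of ILMN_1679041 ran from 1.11 to 1.81 over the 3 lines and its adjusted p from 0.000978 to 0.0921, which ended the call in every such fit in BL-41 and SU-DHL-4. That of ILMN_1726456 ran from 0.68 to 1.18, with adjusted p of 0.001 to 0.0669, and its call held in all 4 such fits in Oci-Ly-2. In BL-41 that call was lost without either control array or artesunate replicate 1, and in SU-DHL-4 without control replicate 3 or artesunate replicate 3. In Oci-Ly-2 that of ILMN_1679041 was lost without control replicate 3 or artesunate replicate 1. Under median scaling ILMN_1679041 lost its SU-DHL-4 call (adjusted p 0.0287, and 0.0223 with no filter on dim probes) and ILMN_1726456 its BL-41 call (adjusted p 0.017). Without background correction the ILMN_1679041 change was 0.68 for SU-DHL-4 and 0.88 for Oci-Ly-2, both called.

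The light chains that pair with SLC3A2 did not share 1 pattern. SLC7A5 had log2 signals of 12.35 and 12.06 with artesunate, against 11.36 and 11.55 in 12 h control BL-41. It had 11.34 and 11.39 with artesunate, against 10.77 and 10.91 in control SU-DHL-4, and 11.56 and 11.71 with artesunate, against 10.88 and 11.02 in control Oci-Ly-2. Both artesunate arrays were above both controls in each line, by 0.75, 0.52 and 0.68 (SE 0.19 each), but limma's adjusted p of 0.0307 for BL-41, 0.152 for SU-DHL-4 and 0.0315 for Oci-Ly-2 passed the threshold of 0.01 in none of them. Without background correction it was called in BL-41 (0.73, adjusted p 0.00671) and Oci-Ly-2 (0.66, adjusted p 0.00881). SLC7A6 was the only gene of the 10 with negative changes. Its probe ILMN_2324561 had 6.32 and 6.29 with artesunate, against 6.78 and 6.87 in control BL-41, 5.65 and 5.52 with artesunate against 6.34 and 6.23 in control SU-DHL-4, and 5.46 and 5.40 with artesunate against 6.24 and 5.96 in control Oci-Ly-2. The artesunate arrays lay below the controls in all 3 lines. In a single line 23.7%, 22% and 24.4% of all probes did so, and the share over all 3 lines was not computed. The limma changes of -0.52, -0.70 and -0.67 (SE 0.18 each, adjusted p 0.142, 0.0375 and 0.027) did not pass within a line. With the mean of both control times as the reference the SU-DHL-4 and Oci-Ly-2 values were -0.88 and -0.81, with adjusted p of 0.00171 and 0.00187, while without background correction the changes were -0.29, -0.31 and -0.28. The other SLC7A6 probe, ILMN_1812559, gave -0.28, -0.19 and -0.25 (SE 0.16 each), with overlapping groups in SU-DHL-4, and was not called.

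SLC43A1, which works without a heavy chain, had 6.55 and 5.97 with artesunate, against 4.94 and 5.32 in 12 h control BL-41. It had 7.03 and 6.37 with artesunate, against 5.58 and 5.42 in control SU-DHL-4, and 6.64 and 7.26 with artesunate, against 5.27 and 5.65 in control Oci-Ly-2. The groups were apart in every line, although the artesunate arrays of each pair were far apart. The change was 1.13 for BL-41 and 1.2 for SU-DHL-4, where the adjusted p of 0.0131 and 0.011 just missed the threshold, and 1.49 in Oci-Ly-2, where it was 0.000877 (SE 0.25 each). Without Oci-Ly-2 12 h control replicate 1 or artesunate replicate 3 the Oci-Ly-2 call was lost, with changes of 1.18 to 1.81 and adjusted p of 0.0012 to 0.0381 over the 4 fits. Without background correction the changes were 0.46, 0.57 and 0.73, called in SU-DHL-4 (adjusted p 0.00831) and Oci-Ly-2 (0.000466).

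SLC6A9, the glycine carrier, had the highest fitted change of the 14 probes in each line, with background correction. Its probe ILMN_1714445 had 7.73 and 7.60 in BL-41 with artesunate, against 5.04 and 5.29 in the 12 h control. In SU-DHL-4 it had 6.23 and 6.48 with artesunate, against 4.40 and 4.33 in the control, and in Oci-Ly-2 6.65 and 6.69 with artesunate, against 4.48 and 4.70 in the control. All 6 artesunate arrays detected the probe, while the 12 h control arrays of SU-DHL-4 and Oci-Ly-2 did not. After background correction the fold change was 5.65 in BL-41 (log2 2.50, SE 0.16, limma adjusted p 1.47e-08). Against the detection limit of the control arrays SLC6A9 was higher by at least 2.93-fold in SU-DHL-4 (fitted log2 1.99, adjusted p 3.89e-07) and by at least 3.64-fold in Oci-Ly-2 (fitted log2 2.08, adjusted p 1.22e-07). These calls held in all 4 fits that each left out 1 array, with adjusted p of 5.05e-07 to 1.63e-06 for BL-41, 4.72e-06 to 4.1e-05 for SU-DHL-4 and 4.54e-06 to 1.29e-05 for Oci-Ly-2. The size of the change depended on the background correction. Without it the log2 changes were 1.31, 0.79 and 0.85 (adjusted p 5.32e-10, 1.03e-06 and 2.36e-07), the bounds were at least 1.52-fold (SU-DHL-4) and at least 1.71-fold (Oci-Ly-2), and SLC6A9 was highest in BL-41 only, behind SLC38A2 and SLC3A2 probe ILMN_1726456 (0.92 and 0.89) in SU-DHL-4 and both SLC3A2 probes (0.99 and 0.88) in Oci-Ly-2. The other probes of the gene did not show this change. ILMN_1754262, annotated to the same RefSeq transcript as ILMN_1714445, was not detected on any array, and ILMN_2252701, annotated to a different one, was detected on 12 of 24 arrays, with signals between 4.41 and 5.34 and 12 h changes of 0.09, 0.16 and 0.20 (SE 0.19 each) between overlapping groups. The change at SLC6A9 therefore rested on 1 of 3 probes.

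The cationic amino acid carrier SLC7A1 rose in each line. It had 10.78 and 10.82 with artesunate, against 9.85 and 9.86 in 12 h control BL-41. It had 10.84 and 11.19 with artesunate, against 10.19 and 10.19 in control SU-DHL-4, and 10.55 and 10.54 with artesunate, against 9.66 and 9.63 in control Oci-Ly-2. The groups did not overlap in any line, and the SU-DHL-4 artesunate arrays were the widest pair. The changes were 0.94, 0.82 and 0.90 (SE 0.14 each), with adjusted p of 0.000515 for BL-41, 0.00299 for SU-DHL-4 and 0.000561 for Oci-Ly-2. With 1 array left out the changes stayed between 0.65 and 0.99, and the adjusted p ran from 0.00803 to 0.011 for BL-41, 0.00301 to 0.0743 for SU-DHL-4 and 0.00647 to 0.0108 for Oci-Ly-2. The call was lost without artesunate replicate 3 in each line, without control replicate 1 in BL-41, without either control array in SU-DHL-4 and without control replicate 3 in Oci-Ly-2. Median scaling also ended the SU-DHL-4 call (0.79, adjusted p 0.0178).

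Of the sodium-coupled glutamine carriers, SLC38A2 was called and SLC38A1 was not. SLC38A2 had 8.99 and 9.13 with artesunate, against 8.22 and 8.22 in 12 h control BL-41. It had 7.79 and 7.70 with artesunate, against 6.07 and 6.46 in control SU-DHL-4, and 8.72 and 8.57 with artesunate, against 7.60 and 7.49 in control Oci-Ly-2. No groups overlapped, and the gap was widest in SU-DHL-4, the line with the dimmest controls. It was called in SU-DHL-4 (1.48, adjusted p 8.9e-05) and Oci-Ly-2 (1.10, adjusted p 0.000805), and the BL-41 change was 0.84, where the adjusted p of 0.0112 missed the threshold (SE 0.18 each). The SU-DHL-4 call held with each array left out, with changes of 1.28 to 1.67, and the change was 0.92 without background correction, also called. The Oci-Ly-2 call was lost without 12 h control replicate 3 or artesunate replicate 1, with adjusted p of up to 0.0156. With the mean of both control times as the reference the BL-41 value was 1.08, with an adjusted p of 0.000222. SLC38A1 was read by 2 probes of unlike size of change. ILMN_2266948 had 7.84 and 8.33 with artesunate, against 7.0 and 7.23 in control BL-41, 6.89 and 7.11 with artesunate against 5.80 and 6.19 in control SU-DHL-4, and 7.40 and 7.29 with artesunate against 7.0 and 7.08 in control Oci-Ly-2. It gave changes of 0.97, 1.0 and 0.31 (SE 0.22 each; adjusted p 0.018, 0.018 and 0.529), and the brighter probe ILMN_1769911 gave 0.49, 0.44 and 0.25 (SE 0.13 each; adjusted p 0.0445, 0.0778 and 0.315). On both probes the artesunate arrays lay above the controls in each line, by the least in Oci-Ly-2.

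The neutral amino acid exchangers SLC1A4 and SLC1A5 passed the threshold in BL-41 only. SLC1A4 had 7.30 and 7.04 with artesunate, against 5.79 and 6.22 in 12 h control BL-41, 6.28 and 6.64 with artesunate against 5.96 and 5.66 in control SU-DHL-4, and 5.84 and 6.05 with artesunate against 4.92 and 5.03 in control Oci-Ly-2. Its change was 1.17 for BL-41 (adjusted p 0.00518), 0.65 for SU-DHL-4 (0.138) and 0.97 for Oci-Ly-2 (0.0123), with SE 0.23 each. The BL-41 call was lost whichever of the 4 arrays was left out, with changes of 0.95 to 1.38 and adjusted p of 0.0135 to 0.0999, and also under median scaling (adjusted p 0.0146) and with no filter (0.0139), while without background correction it held at 0.64. SLC1A5 had 9.19 and 9.12 with artesunate, against 7.98 and 8.08 in control BL-41, 8.59 and 8.09 with artesunate against 7.75 and 7.65 in control SU-DHL-4, and 8.91 and 8.91 with artesunate against 8.39 and 8.34 in control Oci-Ly-2. The groups were apart in each line for both genes. The SLC1A5 change was 1.12 for BL-41 (adjusted p 0.000527), 0.64 for SU-DHL-4 (0.0464) and 0.55 for Oci-Ly-2 (0.059), with SE 0.17 each. Without BL-41 12 h control replicate 1 or artesunate replicate 1 the BL-41 call was lost, with an adjusted p of up to 0.0141 and changes of 1.07 to 1.17.

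**Figure D2:**
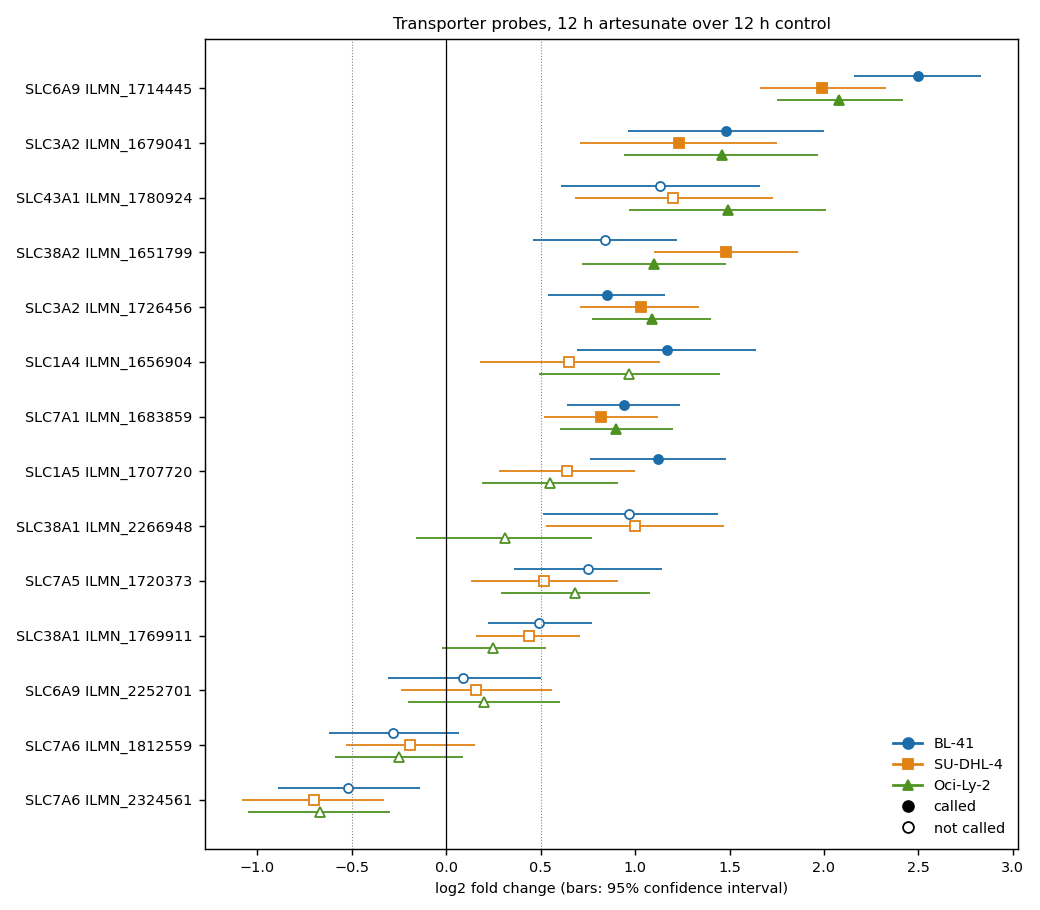
Log2 fold change of the 14 tested probes, 12 h artesunate over 12 h control (x axis), with 1 symbol for each cell line, bars for the 95% confidence interval, filling for called probes and dotted lines at a change of 0.5 in either direction. Probes are ordered by their mean change, with SLC6A9 probe ILMN_1714445 (1.99 to 2.50) at the top and SLC7A6 probe ILMN_2324561 (-0.70 to -0.52) at the bottom.

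Whether the response differed between cell lines was tested by the difference of the 12 h changes. No transporter probe was called in any of the 3 pairs of lines by limma, where 0.064% (BL-41 minus SU-DHL-4), 0.12% (BL-41 minus Oci-Ly-2) and 0.02% (SU-DHL-4 minus Oci-Ly-2) of all probes were, and 2, 2 and 1 of the 14 probes had an unadjusted p under 0.05. The calls of SLC38A2, SLC1A4, SLC1A5 and SLC43A1 in some lines and not in others are therefore not shown to be differences between the lines. The 95% confidence intervals were wide. For SLC38A2 the BL-41 change minus the SU-DHL-4 change was -0.64 (-1.17 to -0.10, adjusted p 0.671). For SLC1A5 the BL-41 change minus the Oci-Ly-2 change was 0.57 (0.06 to 1.08, adjusted p 0.728), and for SLC38A1 probe ILMN_2266948 the SU-DHL-4 change minus the Oci-Ly-2 change was 0.70 (0.03 to 1.36, adjusted p 0.63). The intervals of SLC7A1 were among the narrower ones, with 0.12 (-0.30 to 0.54) for BL-41 minus SU-DHL-4, 0.04 (-0.38 to 0.46) for BL-41 minus Oci-Ly-2 and -0.08 (-0.50 to 0.34) for SU-DHL-4 minus Oci-Ly-2.

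Taking the cell line as the replicate asks whether the 3 lines moved together, with the spread between lines in place of that between arrays. In that limma fit on the 6 group means at 12 h, 10 of the 14 probes were called, 9 higher (8 genes) and 1 lower, against 0.987% of all probes called higher and 1.03% called lower. SLC7A5, not called in a single line, rose by 0.65 (SE 0.10, adjusted p 0.00728) over the 3 lines, and SLC7A6 probe ILMN_2324561 fell by 0.63 (SE 0.10, adjusted p 0.00783). Both calls were lost under median scaling, with adjusted p of 0.0192 for SLC7A5 and 0.0145 for SLC7A6, as was that of SLC1A5 (0.0113), and without background correction those of SLC7A6 (-0.29) and SLC1A4 (0.44) fell short of the fold threshold. The other calls were SLC6A9 probe ILMN_1714445 at 2.19, SLC3A2 at 1.39 and 0.99, SLC43A1 at 1.28, SLC38A2 at 1.14, SLC1A4 at 0.93, SLC7A1 at 0.89 and SLC1A5 at 0.77, with adjusted p between 6.98e-05 and 0.00993. Neither SLC38A1 probe was called, with 0.76 (adjusted p 0.0165) and 0.39 (0.0459). This fit has 2 residual degrees of freedom and leans on the spread shared across probes. With each of the 12 arrays left out in turn, SLC1A5 held its call in 2 fits, SLC7A6 in 4, SLC7A5 in 5 and SLC1A4 in 10 (lost without SU-DHL-4 control or artesunate replicate 3), while the other 6 probes held theirs in all 12. Leaving out Oci-Ly-2 left 3 calls, SLC6A9, SLC3A2 probe ILMN_1679041 and SLC43A1, and testing all 47319 probes without the filter left 0, with an adjusted p of 0.0124 for SLC6A9.

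At 4 h few probes of any gene were called against the 0 h control, so small changes of the transporters could have been missed. No probe of the 14 was called by limma in any line, where 0.056% of all probes were in SU-DHL-4 and 0% in each of the other lines, and an unadjusted p under 0.05 was found for 2 of the 14 for BL-41, 0 for SU-DHL-4 and 1 for Oci-Ly-2. For 7 of the 14 probes the Oci-Ly-2 artesunate arrays lay above both 0 h controls (18.4% of all probes), and for 4 below (18.6%). SU-DHL-4 had 6 above (20.7%) and 0 below (16.1%), while BL-41 had 5 above (20.6%) and 2 below (17.4%). Each SLC3A2 probe lay above in every line, with changes of 0.21 to 0.67 (ILMN_1679041) and 0.22 to 0.28 (ILMN_1726456), none called. The share of all probes that did so in every line was not computed. The log2 changes ran from -0.40 to 0.67 for BL-41, -0.27 to 0.47 for SU-DHL-4 and -0.55 to 0.29 for Oci-Ly-2. The highest was SLC3A2 probe ILMN_1679041 in BL-41, with 7.02 and 6.67 at 4 h with artesunate, against 5.71 and 6.65 in the 0 h control, where 1 control array was low (0.67, SE 0.25, adjusted p 0.394). The lowest was SLC38A2 in Oci-Ly-2, with 7.34 and 6.78 at 4 h with artesunate, against 7.62 and 7.59 at 0 h (-0.55, SE 0.18, adjusted p 0.347). SLC6A9 probe ILMN_1714445 had 4.89 and 5.15 at 4 h in BL-41, against 4.87 and 4.74 at 0 h, and was not detected on the 4 h arrays of SU-DHL-4 and Oci-Ly-2.

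Time in culture without artesunate was read in a comparison where few probes of any gene were called, so small changes could have been missed. Between the 12 h and 0 h controls no probe of the 14 was called by limma, where the share of all probes called was 0.004% for BL-41, 0% for SU-DHL-4 and 0.00799% for Oci-Ly-2, and an unadjusted p under 0.05 was found for 2 of the 14 for BL-41, 1 for SU-DHL-4 and 0 for Oci-Ly-2. SLC38A2 was the member with the most movement, at 8.22 and 8.22 in the 12 h control, against 7.91 and 7.59 in the 0 h control of BL-41 (0.47, SE 0.18, adjusted p 0.802), and 6.07 and 6.46 at 12 h, against 5.84 and 5.70 at 0 h in SU-DHL-4 (0.50, SE 0.18, adjusted p 0.379). Its Oci-Ly-2 controls differed by -0.06. The other members ranged from -0.36 to 0.41 over the 3 lines.

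**Figure D3:**
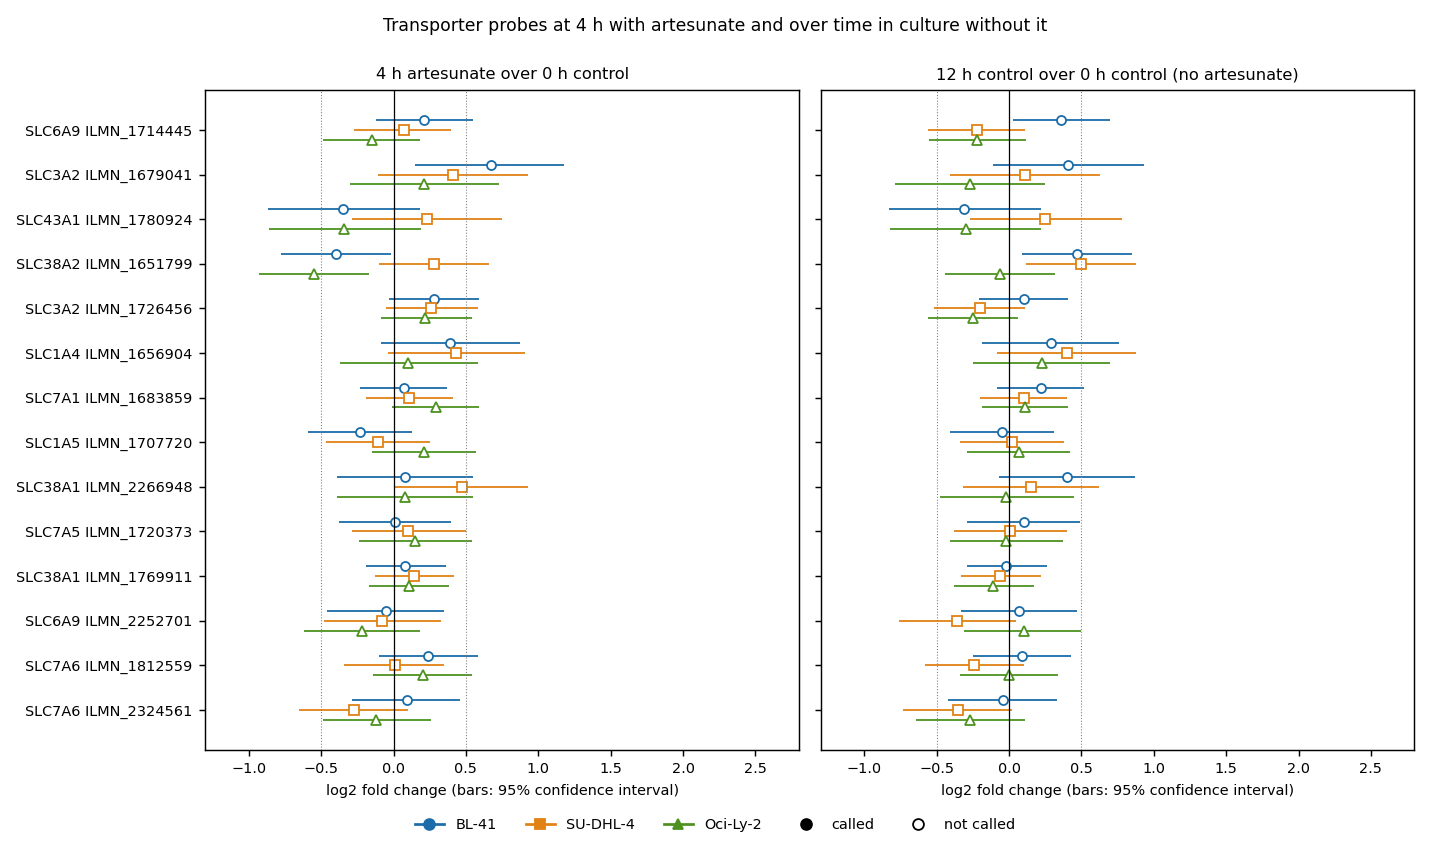
Log2 fold change (x axis, with bars for the 95% confidence interval) of the 14 tested probes for 4 h artesunate over 0 h control (left) and 12 h control over 0 h control (right), in the probe order and on the symbols of the 12 h plot, in each cell line. All symbols are open, since no probe was called in either comparison, and the changes lie between -0.55 and 0.67.

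The 12 h change minus the 4 h change was added as a comparison after the values had been seen. SLC6A9 probe ILMN_1714445 was called in each line, with a difference of 2.29 for BL-41 (SE 0.23, adjusted p 3.09e-05). Outside BL-41 the 4 h artesunate and 12 h control arrays did not detect the probe, so the fitted differences of 1.93 (SU-DHL-4) and 2.24 (Oci-Ly-2) have no exact size. Without background correction the 3 differences were 1.24, 0.75 and 0.90, and under median scaling the Oci-Ly-2 call was lost (adjusted p 0.0154). SLC1A5 was called in BL-41, at 1.35 (SE 0.24, adjusted p 0.00784), and SLC38A2 in Oci-Ly-2, at 1.65 (SE 0.26, adjusted p 0.0024). This made 2, 1 and 2 of the 14 probes called, where 0.276%, 0.0799% and 0.328% of all probes were. The remaining probes, SLC7A1 and SLC3A2 among them, did not pass: the SLC7A1 differences were 0.88, 0.71 and 0.61 (SE 0.20 each), with adjusted p of 0.0523, 0.17 and 0.166. With each of the 8 arrays left out in turn the SLC1A5 call held only without 4 h artesunate replicate 3, and the SLC38A2 call only without 4 h artesunate replicate 1 or 12 h control replicate 1, with adjusted p of up to 0.0649 and 0.0206, while those of SLC6A9 held in every one. Under median scaling neither the SLC1A5 call (adjusted p 0.0291) nor that of SLC38A2 (0.0154) held.

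Without artesunate the cell lines differed in how much of some transporters they expressed. For the mean of the 0 h and 12 h controls limma called 6 of the 14 probes for BL-41 against SU-DHL-4 (19.4% of all probes), 4 for BL-41 against Oci-Ly-2 (19.3%) and 6 for SU-DHL-4 against Oci-Ly-2 (19.4%). SLC38A2 differed the most: its 4 control arrays averaged 7.98 ± 0.30 for BL-41, 6.02 ± 0.33 for SU-DHL-4 and 7.58 ± 0.06 for Oci-Ly-2 (SD, n = 4). BL-41 and Oci-Ly-2, the neighbours at the upper end, did not pass (0.41, adjusted p 0.0193), while SU-DHL-4 was lower than Oci-Ly-2 by 1.56 (adjusted p 4.97e-09), and BL-41 exceeded SU-DHL-4 by 1.97 (adjusted p 1.59e-10).

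SLC38A1 also had its lowest means in SU-DHL-4. Probe ILMN_1769911 averaged 10.29 ± 0.06 for BL-41, 9.37 ± 0.06 for SU-DHL-4 and 9.78 ± 0.07 for Oci-Ly-2, and probe ILMN_2266948 averaged 6.91 ± 0.25 for BL-41, 5.92 ± 0.29 for SU-DHL-4 and 7.05 ± 0.08 for Oci-Ly-2 (SD, n = 4). BL-41 was higher than SU-DHL-4 on both probes, by 0.92 (adjusted p 1.16e-07) and 0.99 (adjusted p 4.68e-05). For ILMN_1769911 BL-41 also exceeded Oci-Ly-2, by 0.50 (adjusted p 0.000225), a call lost without BL-41 0 h control replicate 1 or Oci-Ly-2 12 h control replicate 3. SU-DHL-4 against Oci-Ly-2 was called for ILMN_2266948 (-1.13, adjusted p 9.27e-06), while ILMN_1769911 (-0.41, adjusted p 0.00154) fell short of the fold threshold. SLC3A2 probe ILMN_1726456 averaged 9.48 ± 0.08 for BL-41, 8.63 ± 0.18 for SU-DHL-4 and 9.27 ± 0.16 for Oci-Ly-2, and SU-DHL-4 was the line that stood apart (BL-41 over SU-DHL-4 0.85, adjusted p 2.05e-06, and SU-DHL-4 over Oci-Ly-2 -0.64, adjusted p 6.26e-05). SLC7A1 ran the other way, with 9.75 ± 0.13 for BL-41, 10.14 ± 0.11 for SU-DHL-4 and 9.59 ± 0.07 for Oci-Ly-2 (SD, n = 4), the highest being SU-DHL-4. It was called for SU-DHL-4 over Oci-Ly-2 (0.55, adjusted p 0.000192), but not without SU-DHL-4 0 h control replicate 3 (0.50), whereas BL-41 against SU-DHL-4 (-0.39, adjusted p 0.00452) fell short of the fold threshold.

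SLC1A4 averaged 5.86 ± 0.25 for BL-41 and 5.61 ± 0.30 for SU-DHL-4, against 4.86 ± 0.14 for Oci-Ly-2 (SD, n = 4), the lowest, and 1 of the Oci-Ly-2 control arrays did not detect it. BL-41 was higher than Oci-Ly-2 by 1.0 (adjusted p 4.98e-05) and SU-DHL-4 by 0.74 (adjusted p 0.00106), while BL-41 and SU-DHL-4 were not called different. Without background correction these differences were 0.36 and 0.26, below the fold threshold. SLC7A6 was also lower in Oci-Ly-2 than in BL-41, with BL-41 over Oci-Ly-2 at 0.86 and 0.61 for its 2 probes (adjusted p 5.11e-06 and 0.000765), the second call being lost without Oci-Ly-2 0 h control replicate 3 (0.49) and without background correction (0.33). SLC1A5 averaged 8.05 ± 0.09 for BL-41 and 7.69 ± 0.12 for SU-DHL-4, against 8.33 ± 0.06 for Oci-Ly-2 (SD, n = 4), the highest, with SU-DHL-4 over Oci-Ly-2 at -0.64 (adjusted p 0.000265), and -0.49 without background correction, below the fold threshold. SLC7A5 averaged 11.41 ± 0.11 for BL-41, 10.84 ± 0.19 for SU-DHL-4 and 10.96 ± 0.12 for Oci-Ly-2, and only BL-41 over SU-DHL-4 was called (0.57, adjusted p 0.00202), a call lost without the 0 h or 12 h control replicate 3 of BL-41 or control replicate 1 of either time in SU-DHL-4 (0.46 to 0.68). SLC6A9 probe ILMN_1714445 was detected on 0 of the 4 SU-DHL-4 control arrays, so its call for BL-41 against SU-DHL-4, the sixth of that pair, has no exact size, and it was lost without background correction and under median scaling. SLC43A1 did not differ between any pair of lines past the threshold, with means of 5.28 to 5.61.

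**Figure D4:**
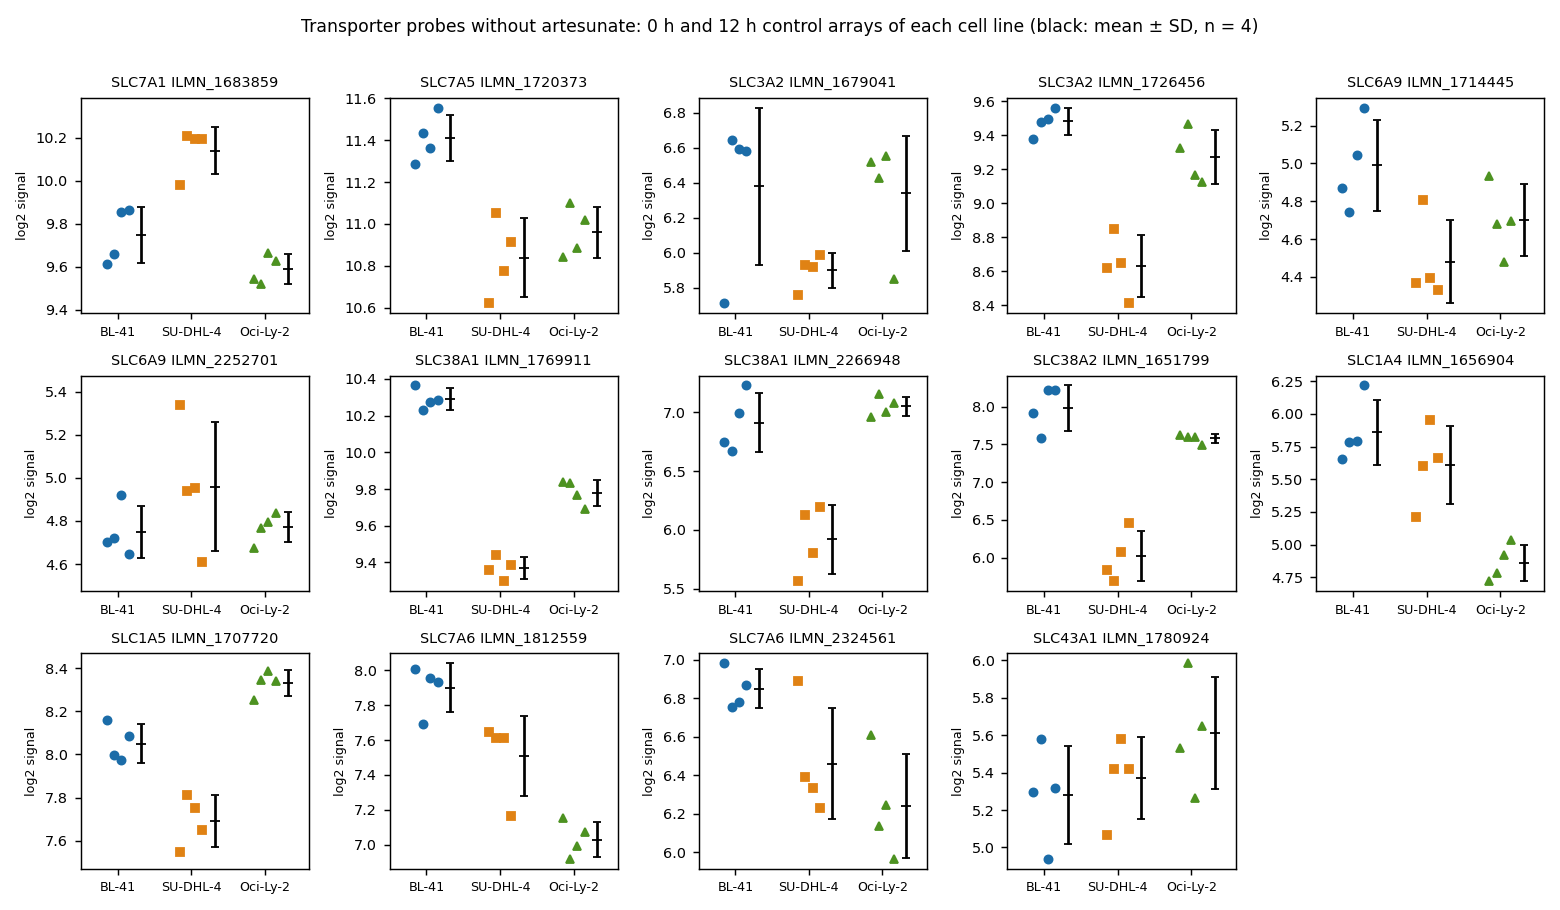
Log2 signal (y axis) of the 14 tested probes on the 0 h and 12 h control arrays of each cell line, with 1 point for each array and the mean ± SD of the 4 arrays in black. The SU-DHL-4 arrays of SLC38A2 lie between 5.70 and 6.46, below all BL-41 and Oci-Ly-2 arrays, which lie between 7.49 and 8.22.

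Few probes of other amino acid transport genes were called at 12 h. These further lists were also chosen with earlier results of these data known. Of 32 further carriers of the plasma membrane, 15 had a probe that was tested, with 16 probes, and limma called 1 of these in SU-DHL-4 and 0 in the other lines (4 in SU-DHL-4, 1 in BL-41 and 3 in Oci-Ly-2 had an unadjusted p under 0.05). The call was SLC7A11 (xCT), the light chain of the cystine and glutamate exchanger that also pairs with SLC3A2. It was detected on 4 of the 24 arrays, the 12 h artesunate arrays of BL-41 and SU-DHL-4, so it entered the test only through the groups in which it was high and its call carries no weight as a test. Its signal was at least 1.4-fold higher in SU-DHL-4 with artesunate than in the control. In BL-41 the fitted change of 0.47 did not pass. Among 9 lysosomal carriers, 8 genes with 9 probes were tested and limma called 0 in any line (unadjusted p under 0.05 for 1, 0 and 3 probes), and among 12 mitochondrial amino acid carriers, 10 genes with 12 probes were tested and it called 0 (unadjusted p under 0.05 for 1, 2 and 3 probes). The median changes of these 3 lists ran from -0.25 to 0.17 over the lines, with members in both directions. The largest changes that did not pass were -0.80 in SU-DHL-4 for SFXN1, a mitochondrial serine carrier (adjusted p 0.0266), -0.72 in SU-DHL-4 for SLC25A22, a mitochondrial glutamate carrier (0.0333), -0.70 in Oci-Ly-2 for SLC38A5, a glutamine carrier (0.0197), and 0.69 in BL-41 for SLC38A9, a lysosomal arginine sensor and carrier (0.0587). These 4 genes were chosen after their values were seen.

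Across the 24 arrays, after the mean of each line was taken off, SLC7A1 correlated with the SLC6A9 probe ILMN_1714445 (r = 0.96) and with SLC7A5 (r = 0.93), and the 2 SLC3A2 probes with each other at 0.90. SLC7A6 probe ILMN_2324561 ran against SLC7A1 (r = -0.88). Over the tested probes of other genes, those most like SLC7A1 were probes of GARS1 (r = 0.98) and YARS1 (0.975), which encode tRNA synthetases for glycine and tyrosine. Those most like SLC6A9 were SESN2 (0.98), a stress-induced regulator of mTORC1, and CYP2R1 (0.978), a vitamin D hydroxylase. For SLC3A2 probe ILMN_1726456 they were NDUFB5 (0.948), a subunit of respiratory complex I, and TSEN15 (0.935), a subunit of the tRNA splicing endonuclease. These correlations are descriptions over arrays that share their groups, so they carry the 12 h artesunate arrays as 1 block and have no test.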

How the data were processed

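The authors deposited non-normalized probe intensities, each with its detection p-value, and a table of processed intensities whose arrays each had a median of 97.8 and equalled quantile-normalized non-normalized signals within 0.0207 on the log2 scale. The authors' normalization was not given in the sources used here. From the non-normalized signals neqc of limma 3.58.1 (R 4.3.3) subtracted background inferred from the detection p-values, added 16, quantile-normalized and took log2. The median signal before normalization was 82.6 to 112, and the number of arrays limits the precision. Tested were probes whose detection p was below 0.05 on 2 or more arrays (25017 of 47319). A limma model of 12 group means (12 residual and 7.418 prior degrees of freedom) gave all comparisons, and another on the means of the 12 h groups, with a term for the line (2 and 6.71), took the line as replicate. Both were run on simulated arrays with known changes and independent noise of the spread seen here. Such arrays carry no information on the spread of independent cultures. A lower bound of fold was set against the lowest detected signal of each control array. Of the probes, 30112 had 1 gene symbol, 8 several and 17199 none, by a table of the platform's annotation. Promoter sequences came from RefSeq (GRCh38.p14), whose coordinates do not refer to the probes.

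The 10 genes, the further lists of carriers and markers, and the tests were chosen with earlier results of these data known, and the lists were written from general knowledge. Every member probe is reported. Other carriers are named where a probe was called at 12 h. In addition SFXN1, SLC25A22, SLC38A5 and SLC38A9, which were not called, were named after their values were seen. For each member called in all lines the 2 genes that correlate best with its brightest called probe are named. Alternatives were median scaling, no background correction, the deposited processed values, a stricter filter or none (stricter meaning detection p under 0.01 on both arrays of a group), the replicate number as a block, an adjusted p under 0.05, each line alone, the mean of both controls as reference, and leaving out each array or line.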

Additional observations from a re-analysis of the deposited data

Results flagged for a closer look

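The 12 h change minus the 4 h change was called for SLC6A9 probe ILMN_1714445 in BL-41 (2.29 on the log2 scale), SU-DHL-4 (1.93) and Oci-Ly-2 (2.24). It was also called for SLC1A5 in BL-41 (1.35) and for SLC38A2 in Oci-Ly-2 (1.65). Neither of these calls, nor that of SLC6A9 in Oci-Ly-2, held under median scaling. This difference was added as a comparison after the values had been seen. The comparison at 4 h used the 0 h control and that at 12 h the 12 h control, so the difference also holds the change between control times. Outside BL-41 the 4 h artesunate and 12 h control arrays did not detect the SLC6A9 probe, so the values there have no exact size.

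At 4 h some probes had both artesunate arrays above both 0 h controls in one cell line and below them in another, and the difference between the lines at 4 h was not tested. This held for 3 of the 14 transporter probes and for 9.54% of all probes tested. SLC38A2 was at 0.28 in SU-DHL-4, against -0.40 in BL-41 and -0.55 in Oci-Ly-2. SLC43A1 was at 0.23 in SU-DHL-4, against -0.35 in BL-41 and -0.34 in Oci-Ly-2. SLC6A9 probe ILMN_1714445 was at 0.21 in BL-41, against -0.15 in Oci-Ly-2, where the 4 h arrays did not detect it. No single value among these was called.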

How the results depend on the processing

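Counts below are of the 14 transporter probes called. For 12 h artesunate against 12 h control in BL-41, 6 calls became 10 with the mean of the 2 control times as reference and at an adjusted p under 0.05, 1 with the line fitted alone, and 1 to 3 with 1 array left out. In SU-DHL-4, 5 calls became 3 under median scaling, 9 at an adjusted p under 0.05 (8 higher, 1 lower), 8 with the mean of both controls (7 higher, 1 lower), 1 with the line alone, and 2 to 4 with 1 array left out. In Oci-Ly-2, 6 calls became 3 to 5 with 1 array left out, the fewest without 12 h control replicate 3, and were 6 to 9 under the other alternatives. With the cell line as replicate, 10 calls became 0 with no filter, 3 without Oci-Ly-2, and 6 to 10 with 1 array left out. The control levels of BL-41 against Oci-Ly-2 gave 4 calls, 1 with the deposited processed values and 1 without background correction (3 to 4 with 1 array left out). All other counts of control levels stayed within 1.5 times, and the counts of 0 at 4 h, between control times and between lines stayed 0 under each alternative run.

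The 12 h minus 4 h comparison in BL-41 gave 2 calls, 4 with the deposited processed values or without background correction, 1 under median scaling, with no filter, with the replicate block or with the line alone, and 1 to 2 with 1 array left out. That of SU-DHL-4 gave 1 call and 0 with the line alone. That of Oci-Ly-2 gave 2 calls, 4 with the deposited processed values or without background correction, 0 under median scaling, 1 with the line alone, and 1 to 2 with 1 array left out. The cause of these shifts was not tested.

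Single probes that changed sign were near 0. SLC6A9 probe ILMN_2252701 ran from -0.07 to 0.26 in BL-41 (-0.04 without 12 h control replicate 3) and from -0.09 to 0.41 in SU-DHL-4 (-0.01 without 12 h control replicate 3) with 1 array left out, and to -0.02 in SU-DHL-4 with the mean of both controls. SLC7A6 probe ILMN_1812559 ran from -0.42 to 0.03 in SU-DHL-4 with 1 array left out (0.02 without 12 h artesunate replicate 3). Median scaling moved the median of all probes by up to 0.136 at 4 h and -0.125 at 12 h in Oci-Ly-2, by -0.202 at 4 h in SU-DHL-4 and by -0.247 and -0.14 for control levels of BL-41 against SU-DHL-4 and Oci-Ly-2. The same 12 of 14 probes were positive at 12 h in each line under each scaling.

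The labels do not say that a replicate number marks a shared culture or day. Deviations of same-numbered arrays correlated at 0.057 to 0.279 for SU-DHL-4 and 0.075 to 0.155 for Oci-Ly-2, positive in every pair of groups. In BL-41 the correlations with the 12 h artesunate group were -0.181 to -0.144. Those among the other BL-41 groups were 0.134 to 0.207. The main fit did not use the numbers as pairs, and whether they mark a shared culture or day was not tested. With the replicate block, calls at 12 h were 8 for BL-41, 7 for SU-DHL-4 and 7 for Oci-Ly-2 (6 higher, 1 lower). Crossing the numbers of the BL-41 12 h artesunate arrays, a setting chosen after seeing the data, gave 10 calls in the block fit at 12 h and 1 for 12 h minus 4 h.

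With 2 technical arrays a group, a call depends on the spread shared over all groups. SLC6A9 was near the detection limit without artesunate, so its fold is a bound outside BL-41.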
